A study of Caenorhabditis elegans with 2 samples.

Results

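Regions strong in a single replicate are described here: genomic intervals that ranked near the top of one ChIP-seq library's candidate list and were weak or absent in the list of the other. ChIP-seq (chromatin immunoprecipitation followed by sequencing) had been run on whole L2 larvae of Caenorhabditis elegans, strain OP18, genotype unc-119(ed3) III; wgIs18, whose insertion supplies an eGFP-tagged lin-39. Both libraries belonged to 1 group, biological replicates 1 and 2, each from larvae of both sexes pooled, and no second genotype, stage or treatment stood beside them. The tagged copy was therefore carried by every animal sampled, and the whole body was assayed, so the cells behind a region are not known. The members were selected on the deposited signal values themselves: each of the 30000 ce11 candidates of a replicate was ranked by signal, and a region of the top 1000 became a member when it overlapped, by even 1 bp, none of the top 10000 of the other replicate. By this rule 486 of the 1000 strongest regions of replicate 1 were strong in replicate 1 only, and 477 of the 1000 strongest of replicate 2 were strong in replicate 2 only, 963 of 60000 listed candidates in all. Among all candidates, 84.6% of the replicate 1 list and 84.7% of the replicate 2 list met the overlap condition. These shares come from the values that chose the members and are given as description only. The regions set beside them, called shared here, were in the top 1000 of both lists, 261 in replicate 1 coordinates and 260 in replicate 2 coordinates.

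LIN-39 is a homeodomain protein of the Hox family that patterns the middle of the worm's body, with known roles in vulval precursor cells, ventral cord motor neurons and the migration of Q neuroblast descendants. Hox proteins commonly bind DNA together with partner homeodomain proteins of the Pbx and Meis families. A ChIP-seq candidate list reaches down into background by design, because the method used afterwards, the irreproducible discovery rate, weighs how well the ranks of 2 replicates match. A region that is strong in a single replicate is the kind that such a comparison is built to set aside.

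The sequences around the strongest members show what the lists ranked high. They are the 4 strongest members in each direction, and the 2 strongest shared regions, that touched no untranslated region, leaving out 1 chromosome whose sequence is not printed here. Each runs 5′ to 3′ on the plus strand of ce11, 100 bp to either side of the summit, and was read from the RefSeq genome sequence of WBcel235, the same assembly. Capitals mark uninterrupted stretches of at least 12 purines (A or G) or 12 pyrimidines (C or T).
Replicate 1 only, rank 64, X:1093283-1093483: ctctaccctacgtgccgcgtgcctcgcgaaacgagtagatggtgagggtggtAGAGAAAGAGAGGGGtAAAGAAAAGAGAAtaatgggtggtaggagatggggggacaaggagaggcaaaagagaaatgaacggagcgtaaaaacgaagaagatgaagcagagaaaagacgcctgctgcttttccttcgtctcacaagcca
Replicate 1 only, rank 73, X:10238214-10238414: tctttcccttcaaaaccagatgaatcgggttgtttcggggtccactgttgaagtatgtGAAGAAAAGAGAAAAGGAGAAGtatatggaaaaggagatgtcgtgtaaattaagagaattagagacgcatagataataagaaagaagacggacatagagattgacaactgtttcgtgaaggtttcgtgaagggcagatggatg
Replicate 1 only, rank 89, IV:14034073-14034273: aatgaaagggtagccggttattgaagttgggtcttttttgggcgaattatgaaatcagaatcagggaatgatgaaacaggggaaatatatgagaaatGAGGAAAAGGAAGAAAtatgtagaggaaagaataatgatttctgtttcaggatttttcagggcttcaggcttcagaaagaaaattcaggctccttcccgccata
Replicate 1 only, rank 118, IV:1094267-1094467: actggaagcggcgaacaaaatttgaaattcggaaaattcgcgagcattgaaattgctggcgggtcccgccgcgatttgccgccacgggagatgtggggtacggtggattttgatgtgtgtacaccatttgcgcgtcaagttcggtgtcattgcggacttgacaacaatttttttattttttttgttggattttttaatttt
Replicate 2 only, rank 75, V:1228880-1229080: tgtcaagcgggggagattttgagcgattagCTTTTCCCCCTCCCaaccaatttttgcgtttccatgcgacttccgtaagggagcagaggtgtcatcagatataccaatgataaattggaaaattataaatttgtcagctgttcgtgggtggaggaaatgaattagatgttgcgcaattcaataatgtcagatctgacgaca
Replicate 2 only, rank 86, X:10435520-10435720: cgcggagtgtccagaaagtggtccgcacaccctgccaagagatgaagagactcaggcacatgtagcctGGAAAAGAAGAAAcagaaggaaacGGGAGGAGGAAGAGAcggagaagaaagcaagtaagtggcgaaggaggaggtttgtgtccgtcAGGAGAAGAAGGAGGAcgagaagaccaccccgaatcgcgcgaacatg
Replicate 2 only, rank 98, III:5991164-5991364: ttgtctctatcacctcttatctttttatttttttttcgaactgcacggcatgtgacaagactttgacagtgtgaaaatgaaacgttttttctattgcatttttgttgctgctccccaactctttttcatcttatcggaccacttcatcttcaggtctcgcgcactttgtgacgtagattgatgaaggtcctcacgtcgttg
Replicate 2 only, rank 105, III:5014037-5014237: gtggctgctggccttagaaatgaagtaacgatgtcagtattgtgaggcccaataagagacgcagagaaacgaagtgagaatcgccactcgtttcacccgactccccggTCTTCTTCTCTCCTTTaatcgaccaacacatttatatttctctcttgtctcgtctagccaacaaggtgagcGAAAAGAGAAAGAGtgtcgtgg
Shared, rank 1, X:13700765-13700965: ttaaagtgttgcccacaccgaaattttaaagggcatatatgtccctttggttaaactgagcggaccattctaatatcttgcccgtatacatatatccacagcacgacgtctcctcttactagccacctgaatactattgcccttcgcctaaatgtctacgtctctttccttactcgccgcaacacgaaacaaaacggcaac
Shared, rank 2, X:9465776-9465976: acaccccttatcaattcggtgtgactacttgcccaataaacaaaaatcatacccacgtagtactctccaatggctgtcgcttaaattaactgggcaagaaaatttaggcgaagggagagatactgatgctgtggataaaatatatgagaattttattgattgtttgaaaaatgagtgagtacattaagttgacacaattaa

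Of the 8 members printed, 6 held such a stretch within 100 bp of the summit, the longest of 22 bp in the replicate 1 region upstream of zipt-13, a zinc transporter gene, and neither of the printed shared regions did. The whole sets went the other way. A stretch was found in 141 of the 486 regions strong in replicate 1 only (29.0%), against 127 of 261 shared regions (48.7%; Fisher's exact test, two-sided, adjusted p = 4.30e-07 over 5 tests). In replicate 2 only it was found in 152 of 477 (31.9%), against 133 of 260 shared regions (51.2%, adjusted p = 6.20e-07 by the same exact test). Replicate 1 only and replicate 2 only, at 29.0% and 31.9%, were not called apart (adjusted p = 0.363, exact test). Over all candidates the share was 21.7% in replicate 1 and 22% in replicate 2, below both. This count was added after the sequences had been seen.

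Members filled the lower ranks of each top 1000. Ranks of the replicate 1 only regions ran over 64 to 1000 in their own list with a median of 647.5, and those of replicate 2 only over 75 to 1000 with a median of 616. The shared regions had median ranks of 191 in replicate 1 and 186.5 in replicate 2. In steps of 100 ranks, the members in the replicate 1 list numbered 6 in the first step and 72 in the last. In the replicate 2 list they numbered 3 in the first and 68 in the last. The signal of the members ran over 20.2 to 39.3 in replicate 1 and 17.5 to 32.3 in replicate 2, on a scale that is not stated and that is not comparable between lists.

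**Figure D1:**
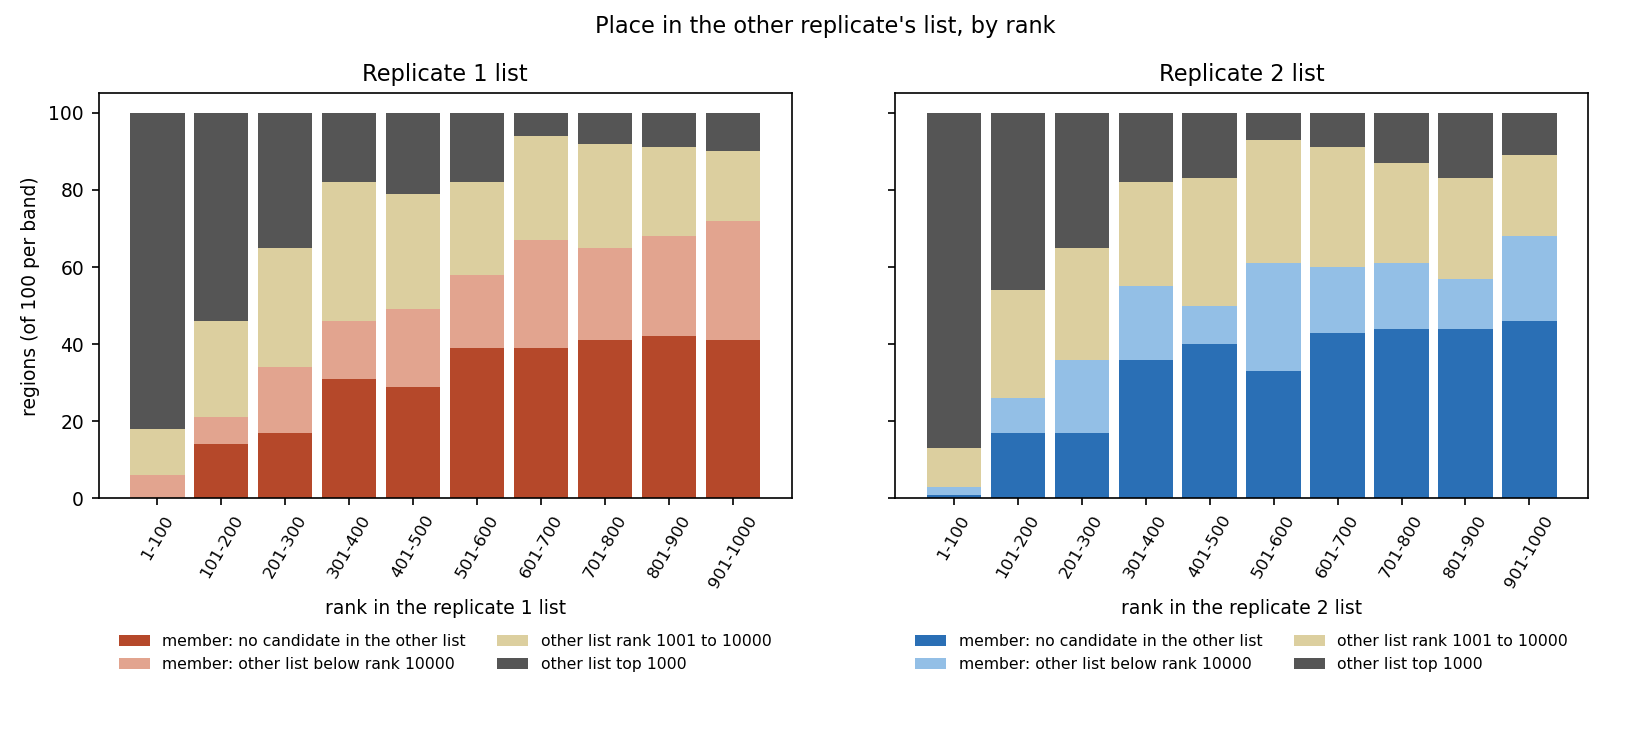
Regions of each top 1000 in steps of 100 ranks (horizontal axis, rank in the own list; vertical axis, regions of 100), divided by their place in the other replicate's list. Members are the coloured lower parts of the bars, 6 of 100 in the first step and 72 of 100 in the last for replicate 1, 3 and 68 for replicate 2.

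Of the replicate 1 only regions, 293 (60.3%) overlapped none of the 30000 candidates of replicate 2, and of the replicate 2 only regions 321 (67.3%) overlapped none of replicate 1. The same held for 63.2% of all replicate 1 candidates and 63.7% of all replicate 2 candidates. Among all candidates that met the overlap condition of the rule, it held for 74.7% in replicate 1 and 75.2% in replicate 2, so members lacked a counterpart in a smaller share than those. These counts follow from the rule's own overlaps and were not tested. The other 193 of replicate 1 only overlapped a candidate with a median rank of 18161 in replicate 2, and the other 156 of replicate 2 only one with a median rank of 18829.5 in replicate 1. The limit itself cut through a continuous range: the regions nearest to it were at other-list ranks 10026, 10027 and 10075 inside and 9988, 9866 and 9769 outside for replicate 1, and at 10028, 10047 and 10220 inside and 9991, 9964 and 9916 outside for replicate 2. At the other end of the rule, the weakest members had signals of 20.16 in replicate 1 and 17.55 in replicate 2, and the strongest regions past rank 1000 that met the overlap condition had 20.16 and 17.54. The rule keeps regions of the 2 directions from overlapping. From a replicate 1 only summit to the nearest replicate 2 only summit was 61792 bp at the median, and 7 of 486 lay within 1000 bp.

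The strongest region of replicate 1 only, X:1093218-1093547, was rank 64 in replicate 1 and rank 26395 in replicate 2. Its summit was intergenic, 3630 bp downstream of the 5′ end of pigx-1. Rank 67 was I:2084848-2085177, 361 bp upstream of a 5′ end of pcyt-2.1, a gene of phosphatidylethanolamine synthesis, and rank 11218 in replicate 2. The zipt-13 region, X:10238149-10238478, was rank 73 in replicate 1 and 27887 in replicate 2. Rank 100 lay 145 bp upstream of a 5′ end of dip-2 at I:4941153-4941482 and was rank 14828 in replicate 2. Ranks 114, 118 and 126, nearest to the linker histone gene hil-3, to Y55F3AR.2 and to cam-1, which encodes a Ror-type receptor tyrosine kinase, overlapped no replicate 2 candidate. Ranks 84, 89 and 139 were nearest to the Toll-like receptor gene tol-1 at 9353 bp, to Y37A1B.7 at 9607 bp and to the acid-sensing channel gene asic-2 at 604 bp, with ranks 10549, 20987 and 10678 in replicate 2. In these 10 regions the summit fell in an intron 3 times and between genes 7 times. Those nearest to pigx-1, pcyt-2.1, tol-1, dip-2, Y55F3AR.2 and asic-2 were on the authors' optimal list.

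In the other direction, the strongest region of replicate 2 only was V:1228830-1229129, in an intron of madd-2, a tripartite-motif gene of axon and muscle arm guidance, at rank 75 in replicate 2 and 12003 in replicate 1. Rank 86, X:10435470-10435769, was 6963 bp upstream of the 5′ end of mig-15, a kinase gene needed for Q neuroblast migration, and was rank 16215 in replicate 1. The third, III:5991114-5991413 at rank 98, stood 616 bp upstream of T04C9.2 with no replicate 1 candidate. Rank 105 stood in an intron of the RNA-binding protein gene larp-1 and had none either. An intron of lin-26, a zinc-finger gene of the epidermal fate, held rank 108 at II:7683408-7683707, which was rank 21652 in replicate 1. Ranks 109 and 122 stood 635 bp upstream of nhr-48, a nuclear receptor gene, and 163 bp upstream of the mannosidase gene mans-3, and were ranks 11001 and 15347 in replicate 1. The other 3 of the 10 strongest stood upstream of dgk-1, a diacylglycerol kinase gene, of bet-1, a bromodomain gene, and of R12B2.6, without a replicate 1 candidate. Among the 10, the regions nearest to madd-2, dgk-1 and mans-3 were on the authors' optimal list.

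The list that the authors called on both replicates together held nearly all members, at a lower place. Of the replicate 1 only regions, 483 overlapped one of its 30000 candidates, at a median rank of 2168, and 83 were within its top 1000. Of the replicate 2 only regions 463 did, at a median rank of 3118, with 62 in its top 1000 and 14 without any overlap. Shared regions had median ranks there of 133 in replicate 1 coordinates and 134.5 in replicate 2 coordinates. How many of all candidates overlapped that list is not given here, so the member counts are not read as particular to members. On the optimal list of 311 peaks stood 8 of the 486 regions strong in replicate 1 only (1.65%), against 220 of 261 shared regions (84.3%), and 4 of the 477 strong in replicate 2 only (0.839%), against 219 of 260 (84.2%). That list was made from the same alignments as the rule, so no test was made. How many of all candidates stood on the optimal list is not given here either. The small member shares are therefore not read as particular to members.

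Coding exon summits were more frequent among members than among shared regions, and at or below the share of each whole list. The summit lay in a coding exon in 85 of 486 regions strong in replicate 1 only (17.5%, exact 95% interval 14.2 to 21.2), against 8 of 261 shared regions (3.07%; Fisher's exact test, adjusted p = 5.92e-09 over 18 tests). In replicate 2 only it did in 145 of 477 (30.4%, exact interval 26.3 to 34.7), against 10 of 260 shared regions (3.85%, adjusted p = 4.82e-19, same exact test). Replicate 1 only and replicate 2 only also differed from each other, at 17.5% and 30.4% (exact test, adjusted p = 1.19e-05). The whole lists differed in the same way, with 22.8% of all replicate 1 candidates and 31.6% of all replicate 2 candidates in coding exons, and the part of this in the result was not tested. Shared regions were thus the ones far from their list, while replicate 2 only stood near its list and replicate 1 only below it. Regions of one list are not replicates of a condition: each test compares the lists of 2 libraries, its interval covers the counting of regions only, and both member sets are set against largely the same shared loci.

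Promoter-proximal summits, lying at most 1000 bp upstream or 200 bp downstream of a coding 5′ end, were fewer among members than among shared regions, and members stood near their lists. They made up 142 of 486 regions of replicate 1 only (29.2%), against 111 of 261 shared regions (42.5%, Fisher's exact test, adjusted p = 0.000697), and 136 of 477 of replicate 2 only (28.5%), against 109 of 260 (41.9%, adjusted p = 0.000697, exact test). Of all candidates, 26.9% in replicate 1 and 26.4% in replicate 2 were promoter-proximal. The directions were 0.707 percentage points apart (exact test, adjusted p = 0.880). The call did not hold where ranks were alike: in the lower 500 ranks of the top 1000 the share was 29.7% of 330 members of replicate 1 only, against 31.4% of 51 shared regions (exact test, adjusted p = 0.921), and 27.4% of 307 members of replicate 2 only, against 31.6% of 57 (adjusted p = 0.694, exact test). Coding exons kept their difference there, at 19.7% of the replicate 1 members against 3.92% of shared regions (exact test, adjusted p = 0.0214), and 32.6% of the replicate 2 members against 8.77% (adjusted p = 0.00202, exact test). The median distance from summit to the nearest coding 5′ end was 1231.5 bp for replicate 1 only, against 1079 bp for shared regions, and 1351 bp for replicate 2 only, against 1125 bp.

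Intergenic summits were fewer than among shared regions, at 41.4% of replicate 1 only against 58.6% of shared regions (Fisher's exact test, adjusted p = 2.85e-05) and 31.9% of replicate 2 only against 55.4% (exact test, adjusted p = 5.92e-09). Over the whole lists the share was 36.2% in replicate 1 and 31.1% in replicate 2, so replicate 1 only lay between its list and the shared regions and replicate 2 only near its list. Between the directions the intergenic share differed by 9.49 percentage points (exact test, adjusted p = 0.00468). In the lower 500 ranks the replicate 1 only share was 41.2%, against 47.1% of shared regions, and was no longer called (exact test, adjusted p = 0.694). Replicate 2 only kept its call there, at 30.6% against 54.4% of shared regions (exact test, adjusted p = 0.00463). The intergenic difference between the directions was also still called at those ranks (exact test, adjusted p = 0.0231). Exons of noncoding genes held 14 of the replicate 1 only summits (2.88%), against 9.20% of shared ones (exact test, adjusted p = 0.000697), and 18 of the replicate 2 only summits (3.77%), against 11.5% (adjusted p = 0.000364, exact test). All candidates were at 2.82% in replicate 1 and 3.29% in replicate 2, near the members. In the lower 500 ranks the shares were 3.33% of replicate 1 only, against 9.80% of 51 shared regions (exact test, adjusted p = 0.146), and 4.23% of replicate 2 only, against 6 of 57 shared regions (exact test, adjusted p = 0.244), gaps of much the same size with few shared regions. Introns held 32.9% of replicate 1 only and 29.8% of replicate 2 only, and untranslated regions 5.35% of replicate 1 only and 4.19% of replicate 2 only, with no difference called. Regions of the top 1000 whose counterpart lay between the top 1000 and rank 10000 of the other list are called intermediate here. Their coding exon share was between members and shared regions, at 9.09% in replicate 1 and 19.8% in replicate 2.

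**Figure D2:**
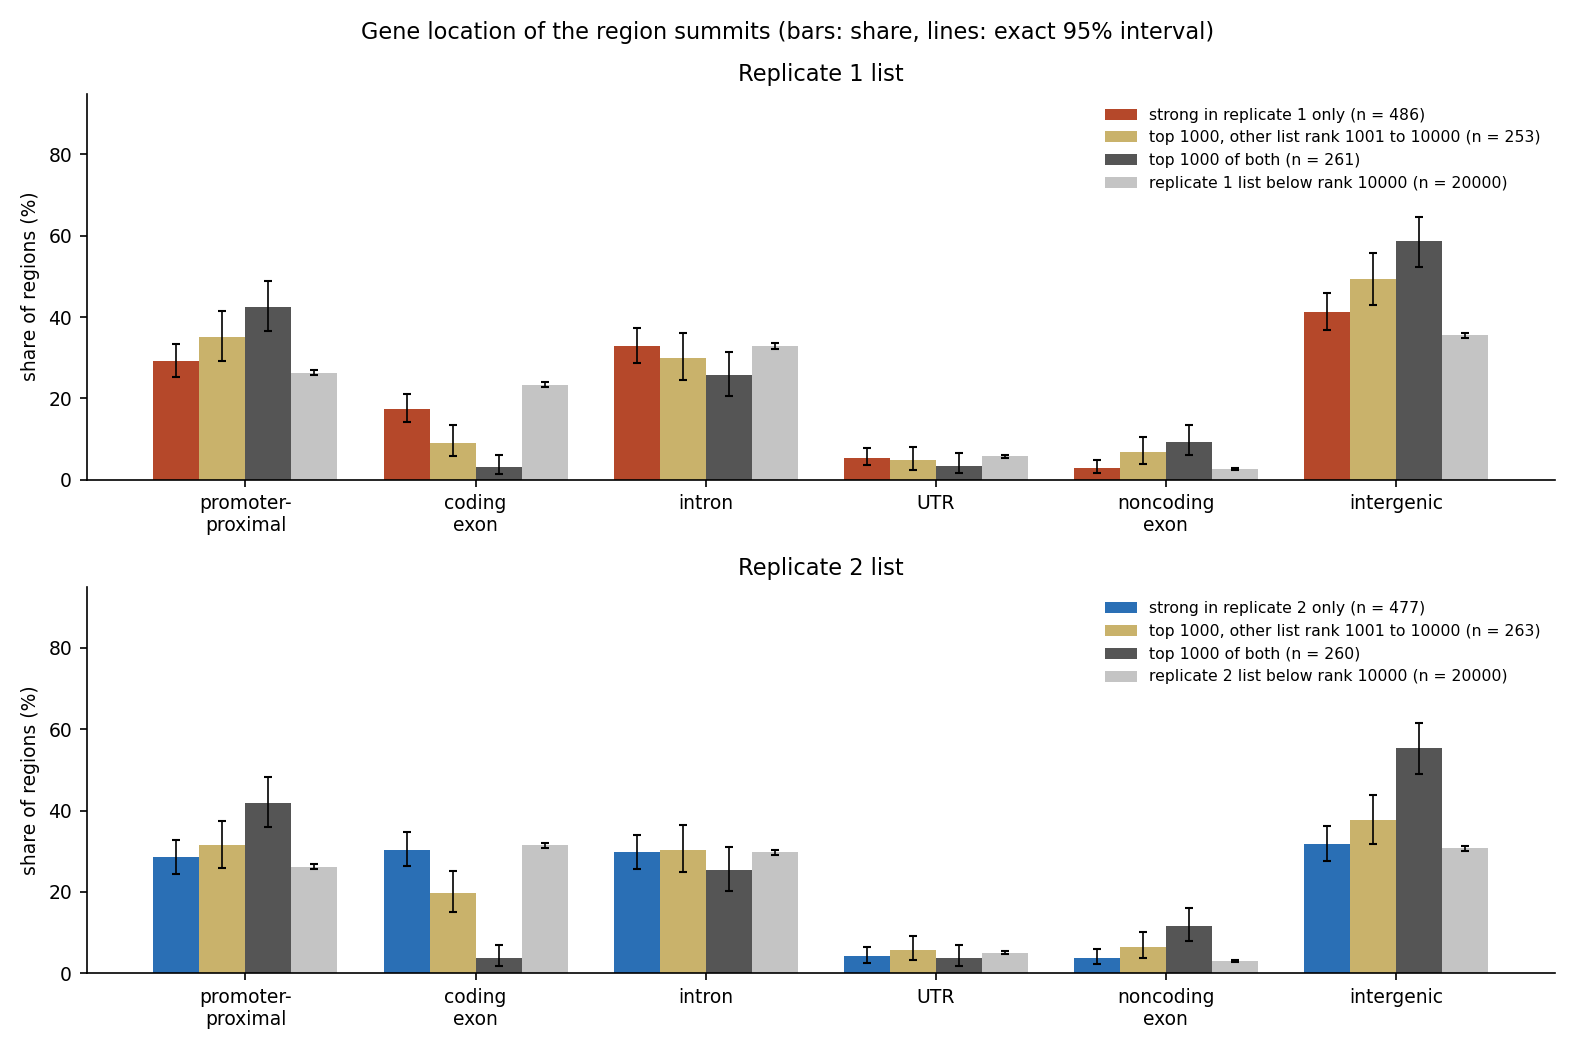
Share of region summits (vertical axis, percent, with exact 95% intervals) by gene location for each replicate's list; promoter-proximal overlaps the other classes. Members are the coloured bars, with coding exons at 17.5% in replicate 1 and 30.4% in replicate 2, against 3.07% and 3.85% in the dark bars of the shared regions.

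By chromosome, members were found on V more often than shared regions and, for replicate 1 only, on X less often. V held 122 of 486 regions of replicate 1 only (25.1%), against 33 of 261 shared regions (12.6%; Fisher's exact test, adjusted p = 0.000548 over 18 tests), and 24.9% of the 477 of replicate 2 only, against 33 of 260 shared regions (12.7%, adjusted p = 0.000548, exact test). V is 20.9% of the nuclear sequence and held 21.5% of all candidates in either list. X, which is 17.7% of the sequence, held 87 regions of replicate 1 only (17.9%), against 75 shared regions (28.7%, exact test, adjusted p = 0.00470), and 109 of replicate 2 only (22.9%), against 75 (28.8%), where the call was missed (exact test, adjusted p = 0.170). All candidates were on X at 20.7% in replicate 1 and 20.3% in replicate 2. The X shares of replicate 1 only and replicate 2 only were not called apart, with the same adjusted p. In the lower 500 ranks V held 27.9% of replicate 1 only members against 11.8% of 51 shared regions, and X 18.2% against 29.4%. V held 26.4% of replicate 2 only members there against 6 of 57 shared regions, and no chromosome was called in any comparison at those ranks. No other chromosome passed the threshold; IV, with 81 regions of replicate 1 only (16.7%) and 53 of replicate 2 only (11.1%), came nearest (exact test, adjusted p = 0.0687). The outer 25% of chromosome length at either end held 39.1% of replicate 1 only, against 41.0% of shared regions, and 38.8% of replicate 2 only, against 41.2%, with no difference called.

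**Figure D3:**
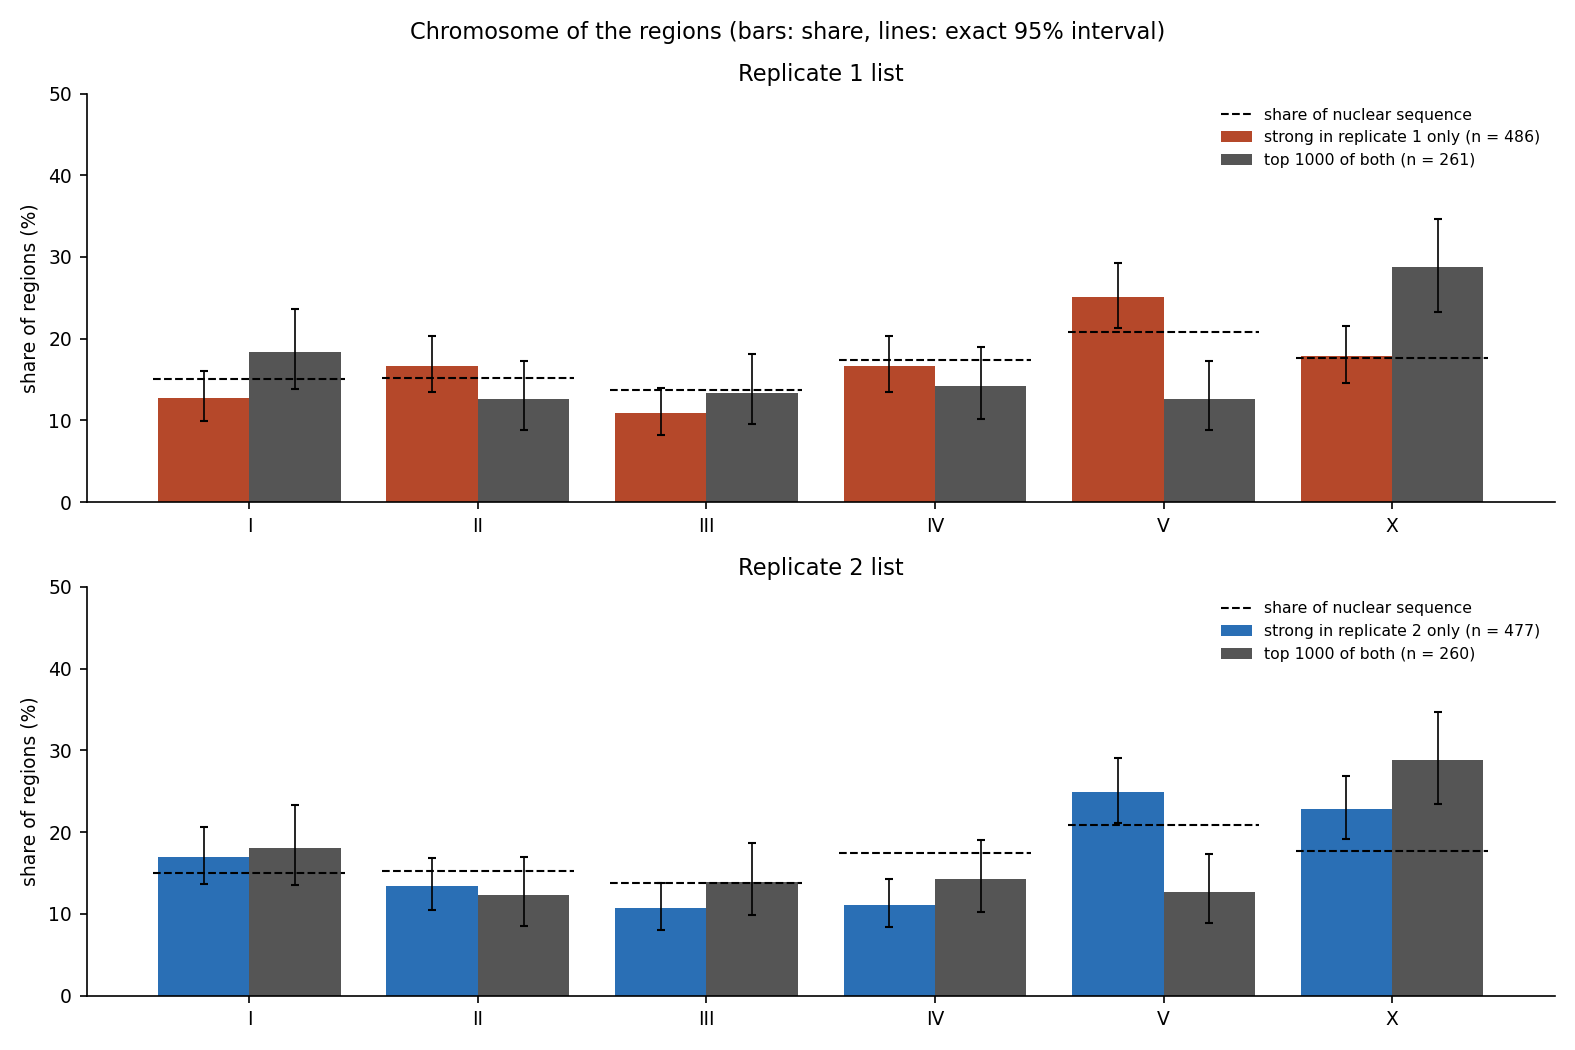
Share of regions on each chromosome (vertical axis, percent, with exact 95% intervals) for members and shared regions of each replicate; dashed lines give the chromosome's share of nuclear sequence. On V the members stand at 25.1% and 24.9% and the shared regions at 12.6% and 12.7%.

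The base composition of members was lower in G+C than that of shared regions. The median G+C content was 35.5% for replicate 1 only (range 21.2 to 56.1), against 42.4% for shared regions, and 40% for replicate 2 only (25.7 to 63.3), against 43.2%. The medians of the whole lists were 34.5% in replicate 1 and 37% in replicate 2. Above its own list's median stood 272 of 486 regions of replicate 1 only (56.0%), against 89.3% of shared regions (Fisher's exact test, adjusted p = 4.24e-21 over 18 tests), and 335 of 477 of replicate 2 only (70.2%), against 84.6% (exact test, adjusted p = 3.97e-05). Those shares of the directions, 56.0% and 70.2%, differed (exact test, adjusted p = 3.24e-05). In the lower 500 ranks the replicate 1 difference was called, with 53.6% against 86.3% (exact test, adjusted p = 0.000106), and in replicate 2 the difference, with 65.8% against 82.5% of 57 shared regions, was not called (exact test, adjusted p = 0.0756). Among regions above the G+C median alone, coding exons held 19.5% of replicate 1 only, against 3.43% of shared regions, and 32.8% of replicate 2 only, against 3.18%. Of all candidates, 49.7% in replicate 1 and 48.9% in replicate 2 had G+C above their own list's median. Of intermediate regions, 72.7% in replicate 1 and 71.1% in replicate 2 did, the latter near the replicate 2 only members.

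**Figure D4:**
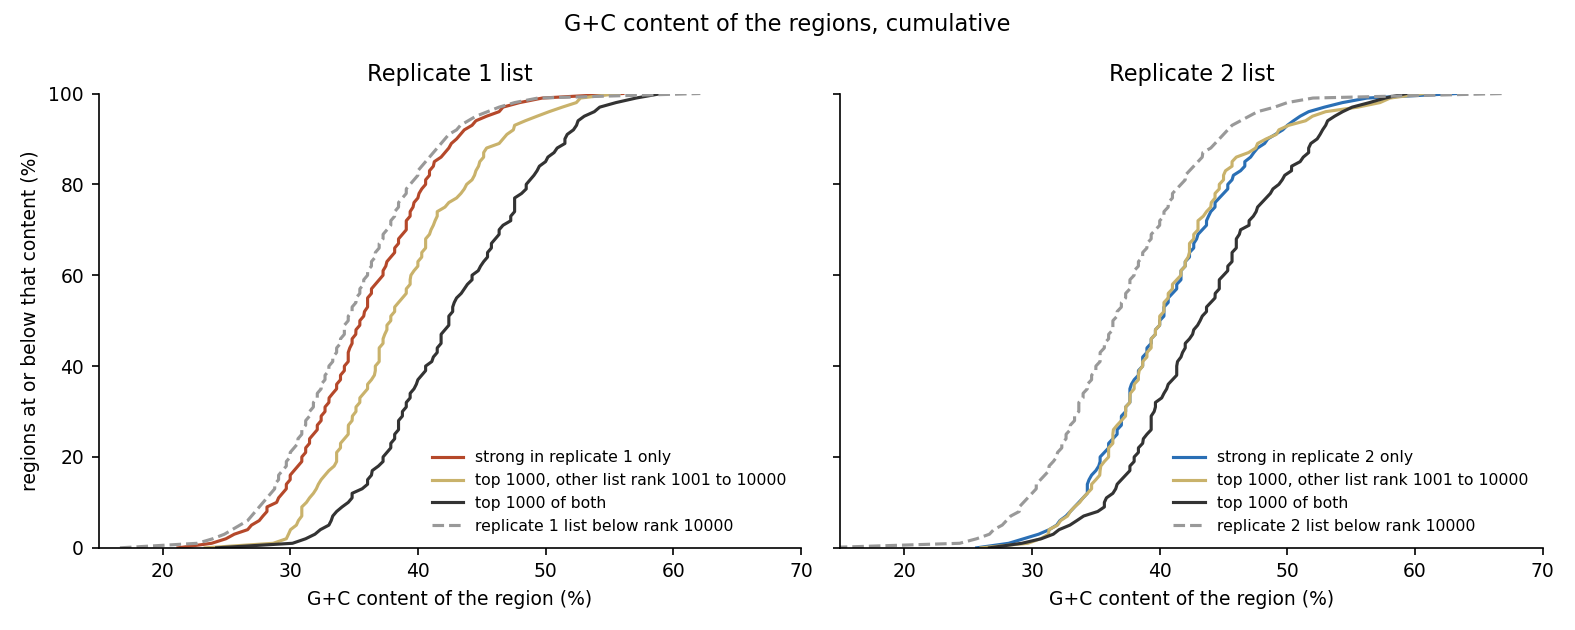
Cumulative share of regions (vertical axis, percent) by G+C content (horizontal axis, percent) for members, for regions of the top 1000 past rank 1000 and up to rank 10000 in the other list, for shared regions and for the own list below rank 10000. Replicate 1 only regions have a median of 35.5%, between weak candidates at 34.5% and shared regions at 42.4%; replicate 2 only regions have 40%, between weak candidates at 36.3% and shared regions at 43.2%.

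Words were searched for on either strand, up to 100 bp from each summit. The words here and below were taken from an earlier analysis of these data, so their tests are not independent evidence. GAGAGA, a purine repeat, was in 99 of 486 regions of replicate 1 only (20.4%), against 108 of 261 shared regions (41.4%; Fisher's exact test, adjusted p = 5.58e-08 over 24 tests), and in 114 of 477 of replicate 2 only (23.9%), against 40% of 260 (adjusted p = 7.33e-05, exact test). It can lie inside the purine stretches above, so the counts are not independent, and among all candidates 12% in replicate 1 and 13.5% in replicate 2 held it. Within the members the share went with rank: for replicate 1 only, 30.1% in the upper 500 ranks and 15.8% in the lower 500 held GAGAGA, against 41.4% and 41.2% of shared regions. For replicate 2 only the shares were 34.7% in the upper 500 ranks and 17.9% in the lower 500, against 40.4% and 38.6% of shared regions. These shares by upper 500 ranks were not tested. In the lower 500 ranks the difference from shared regions was called for replicate 1 only (exact test, adjusted p = 0.00186) and for replicate 2 only (exact test, adjusted p = 0.0107). With shared regions instead taken from the top 500 of both lists, 40.5% held GAGAGA in replicate 1 coordinates and 38.7% in replicate 2 coordinates. Against those the difference was not called in either direction (exact test, adjusted p = 0.189 and 0.708). The shares of the directions, 20.4% and 23.9%, were not called apart (exact test, adjusted p = 0.367).

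TGATNNAT, the composite word of Hox proteins with a Pbx partner (N is any base), did not set members apart. It was in 89 regions of replicate 1 only (18.3%), against 21.1% of shared regions (Fisher's exact test, adjusted p = 0.553), and in 76 of replicate 2 only (15.9%), against 21.2% (exact test, adjusted p = 0.208). All candidates held it at 16.9% in replicate 1 and 16.7% in replicate 2. TAATTA, a homeodomain core, was in 9.67% of replicate 1 only against 6.51% of shared regions, and in 6.71% of replicate 2 only against 6.15%, with no call and 9.99% and 8.09% over the replicate 1 and replicate 2 lists. TGATAA, the GATA-type word, was in 88 of 486 regions of replicate 1 only (18.1%), against 9.96% of shared regions (exact test, adjusted p = 0.00962), and in 18.9% of all replicate 1 candidates, which is near the members. In replicate 2 only it was in 15.9%, against 10.4% (exact test, adjusted p = 0.135), with 18% over its list. An uninterrupted run of at least 8 A or 8 T was in 90 regions of replicate 1 only (18.5%), against 7.66% of shared regions (exact test, adjusted p = 0.000312; in the lower 500 ranks 18.5% against 9.80%, not called), and in 46 of replicate 2 only (9.64%), against 8.08% (exact test, adjusted p = 0.639). Between the directions this run differed by 8.87 percentage points (exact test, adjusted p = 0.000441). The run was in 21.6% of the whole replicate 1 list and 16% of the whole replicate 2 list, and the part of that in the result was not tested. Intermediate regions held the run at 16.6% in replicate 1 and 9.89% in replicate 2, near the members.

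GCGCAGGG, rare in both lists, was in 2 regions of replicate 1 only (0.412%), against 10 shared regions (3.83%; Fisher's exact test, adjusted p = 0.00305). It was in 0 of 477 regions of replicate 2 only, which allows a share of up to 0.629%, against 11 shared regions (4.23%, exact test, adjusted p = 7.33e-05). Of all candidates 0.12% in replicate 1 and 0.107% in replicate 2 held it. Intermediate regions lacked it much as members did, with 1 of 253 in replicate 1 (0.395%) and 0 of 263 in replicate 2. No shared region of the lower 500 ranks did, so nothing could be compared there. The AP-1 type word TGACTCA was in 1.85% of replicate 1 only and 1.89% of replicate 2 only, and the E-box word CACGTG in 2.88% of replicate 1 only and 4.61% of replicate 2 only, with no difference called. A repeat of a unit of up to 3 bases over at least 12 bp of the region was in 38 regions of replicate 1 only (7.82%), against 25.3% of shared regions (exact test, adjusted p = 1.64e-09), and in 52 of replicate 2 only (10.9%), against 23.5% (exact test, adjusted p = 3.97e-05). All candidates held such a repeat at 5.59% in replicate 1 and 5.65% in replicate 2. In the lower 500 ranks the shares were 7.88% of replicate 1 only, against 19.6% of shared regions (exact test, adjusted p = 0.0756), and 8.79% of replicate 2 only, against 15.8% (exact test, adjusted p = 0.321).

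**Figure D5:**
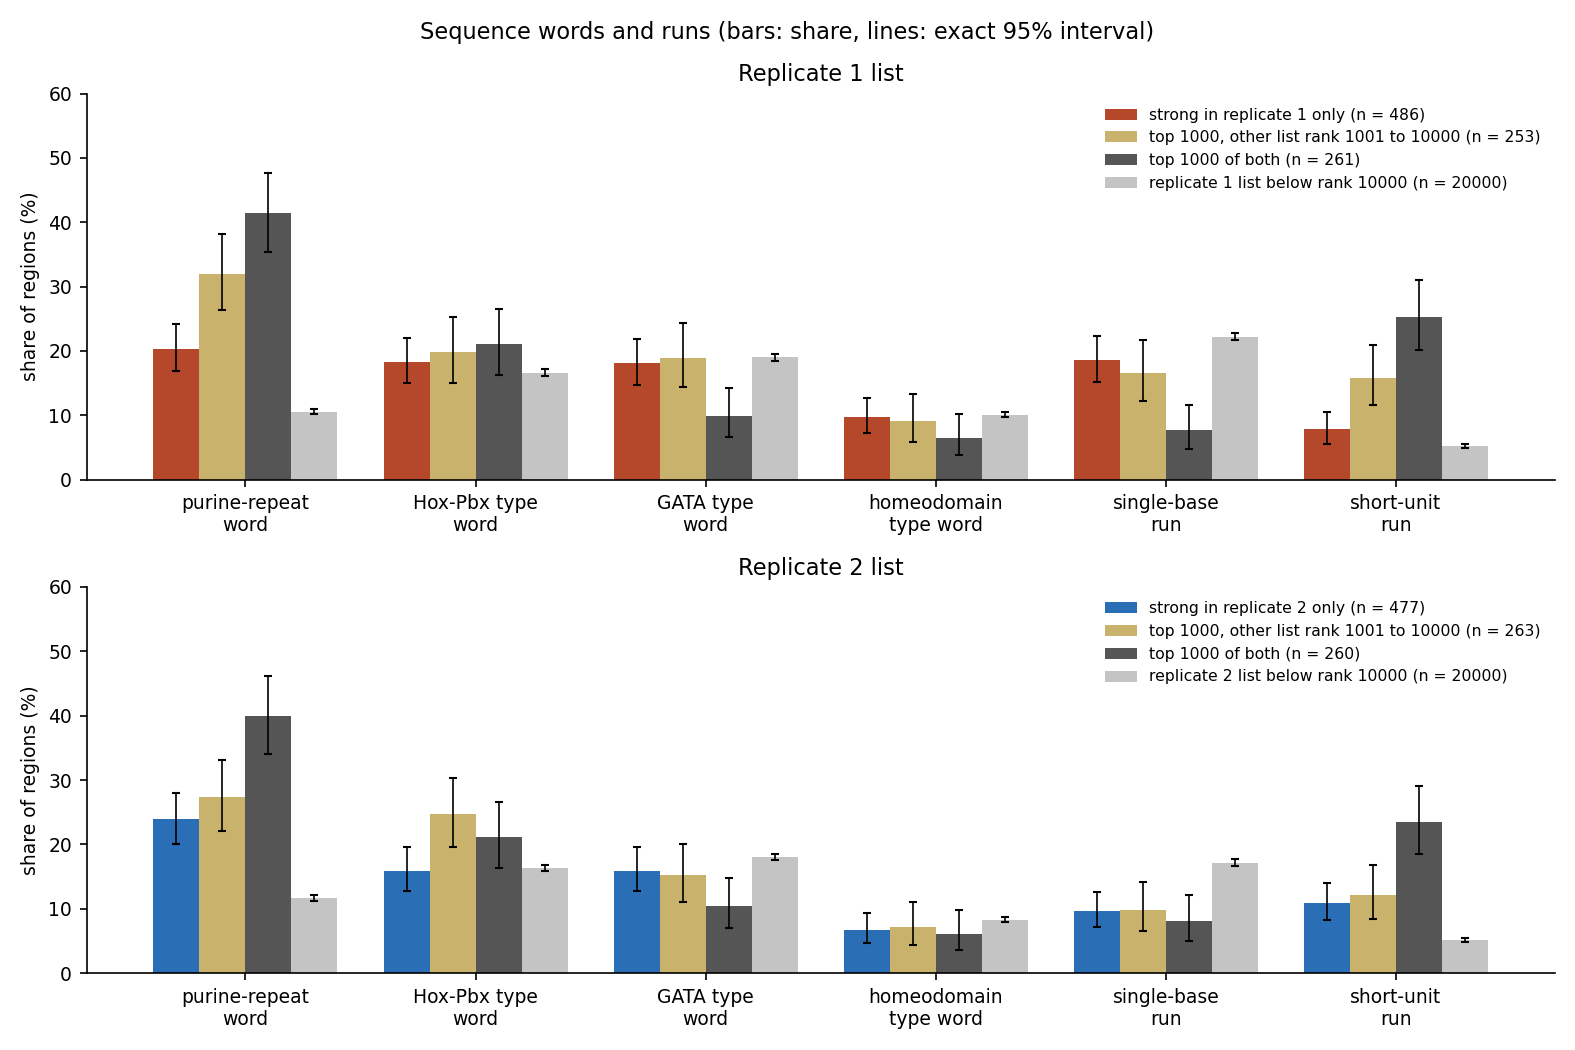
Share of regions holding each word or run (vertical axis, percent, with exact 95% intervals) for members, intermediate regions, shared regions and the own list below rank 10000. The purine-repeat word stands at 20.4% and 23.9% in members, 41.4% and 40% in shared regions and 10.6% and 11.7% below rank 10000.

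Genes for small RNAs (snRNA, snoRNA, rRNA and miRNA) lay within 1000 bp of 9 summits of replicate 1 only (1.85%), against 20 shared summits (7.66%; Fisher's exact test, adjusted p = 0.000594). They lay near 17 of replicate 2 only (3.56%), against 20 (7.69%, exact test, adjusted p = 0.0463). Of all candidates 1.56% in replicate 1 and 1.62% in replicate 2 were near such a gene. At ranks in the lower 500 the shares were 0.909% of replicate 1 only, against 5.88% of shared regions (exact test, adjusted p = 0.122), while replicate 2 only, at 2.93%, stood above its shared regions, at 1.75%, with no call. Transfer RNA genes were near 1.65% of replicate 1 only, against 3.07% of shared regions, and near 1.05% of replicate 2 only, against 3.08%, which was not called. In replicate 1, 8 of 486 members had another top 1000 region of the same list within 1000 bp (1.65%), against 15 of 261 shared regions (5.75%, exact test, adjusted p = 0.00817). In replicate 2 only 11 did (2.31%), against 14 of 260 (5.38%, exact test, adjusted p = 0.0667). Neighbour shares in the lower 500 ranks were 2.12% of replicate 1 only, against 3.92% of shared regions, and 1.95% of replicate 2 only, against 1.75%, with no call. Neighbours were counted by the signal ranks that chose the members and shared regions, so these neighbour tests are description only.

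Members were also set against the 20000 candidates below rank 10000 of their own list, a comparison added after the data had been seen. Promoter-proximal share did not differ detectably, at 29.2% of replicate 1 only against 26.3% (Fisher's exact test, adjusted p = 0.638) and 28.5% of replicate 2 only against 26.2% (exact test, adjusted p = 0.741). V and X were not called in either direction, and IV was lower in replicate 2 only, at 11.1% against 16.47% (exact test, adjusted p = 0.0163). Coding exons were fewer in replicate 1 only, at 17.5% against 23.3% (exact test, adjusted p = 0.0274), and were at 30.4% against 31.5% in replicate 2 only (exact test, adjusted p = 0.891). Intergenic summits were more frequent in replicate 1 only, at 41.4% against 35.5% (exact test, adjusted p = 0.0499), the opposite direction to the comparison with shared regions. Replicate 2 only was at 31.9% against 30.7% (exact test, adjusted p = 0.891). GAGAGA was more frequent in members than in these weak candidates, at 20.4% against 10.6% in replicate 1 (exact test, adjusted p = 3.60e-09) and 23.9% against 11.7% in replicate 2 (exact test, adjusted p = 3.32e-12). Purine or pyrimidine stretches were too, at 29.0% against 20.7% (exact test, adjusted p = 2.03e-05) and 31.9% against 20.5% (exact test, adjusted p = 4.42e-08). Short-unit repeats were more frequent in members as well, at 7.82% of replicate 1 only against 5.26% (exact test, adjusted p = 0.0362) and 10.9% of replicate 2 only against 5.12% (exact test, adjusted p = 3.25e-06), so both directions lay between weak candidates and shared regions. The run of A or T was less frequent in replicate 2 only, at 9.64% against 17.2% (exact test, adjusted p = 2.45e-05), and was at 18.5% against 22.2% in replicate 1 only (exact test, adjusted p = 0.212). Small RNA genes were near 3.56% of replicate 2 only against 1.41% (exact test, adjusted p = 0.00231) and near 1.85% of replicate 1 only against 1.47% (exact test, adjusted p = 0.494). TGATAA was in 88 of 486 regions of replicate 1 only against 3797 of 20000 (exact test, adjusted p = 0.997). G+C above the list median was found in 56.0% of replicate 1 only against 48.5% (exact test, adjusted p = 0.00276) and in 70.2% of replicate 2 only against 45.5% (exact test, adjusted p = 5.13e-26). No other feature passed the threshold in this comparison.

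A gene was named for a member when its coding 5′ end was the nearest and within 5000 bp of the summit, which names a neighbour and no more. Of the replicate 1 only regions 457 had such a gene, 434 different ones, and of the replicate 2 only regions 433 had one, 422 different ones. Both directions named 25 genes, 5.76% of the replicate 1 genes and 5.92% of the replicate 2 genes. With the 232 genes of shared regions, replicate 1 only had 12 in common (2.76% of its genes and 5.17% of theirs) and replicate 2 only 13 (3.08% and 5.60%). Of all coding genes, 2.17% were named in replicate 1 only, 2.11% in replicate 2 only and 1.16% by shared regions. Each overlap was thus above the matching share of all coding genes, and none was tested.

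Some genes were named by several members. For replicate 1 only, 22 genes had at least 2 members. The kinase gene mnk-1 had 3, at ranks 145, 327 and 588. The Ror receptor gene cam-1 had 2, at ranks 126 and 514, both in introns. Pairs of replicate 1 only regions also stood at ptp-3, a LAR-type receptor phosphatase (ranks 181 and 808), at camt-1, a calmodulin-binding transcription activator (203 and 388), and at fmi-1, the Flamingo cadherin (361 and 430). At tln-1, which encodes talin, both regions lay in coding exons, at ranks 247 and 266. For replicate 2 only, 10 genes had at least 2. The ankyrin gene unc-44 had 3, at ranks 211, 245 and 752, all in coding exons. In introns of lit-1, the Nemo-like kinase of Wnt signalling, stood ranks 149 and 921, and in introns of kin-20, a casein kinase 1 gene, stood another 2, the weaker at rank 435.

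For the 25 genes named in both directions the regions are different ones, since the rule lets none overlap. The calmodulin gene cmd-1 had rank 184 in replicate 1 only and its best rank of 267 in replicate 2 only. For cam-1 the best rank was 126 in replicate 1 only and 381 in replicate 2 only, for dip-2 it was 100 in replicate 1 only and 440 in replicate 2 only, and for mnk-1 it was 145 in replicate 1 only and 461 in replicate 2 only. The navigator gene unc-53 had rank 743 in replicate 1 only and 406 in replicate 2 only, and the calcium channel gene unc-2 had 644 in replicate 1 only and 603 in replicate 2 only. The genes among the 25 ran from 291 bp to 52607 bp in length.

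Gene lists were read by counts beside all coding genes, of which 2.17% were named in replicate 1 only, 2.11% in replicate 2 only and 1.16% by shared regions, here in replicate 1 coordinates. Of 27 genes of the Wnt pathway and Q neuroblast migration, 4 were named in replicate 1 only, 3 in replicate 2 only and 4 by shared regions, with cam-1 in all 3 sets. The replicate 1 regions included one 1119 bp from wrm-1, a β-catenin, at rank 288, and one 758 bp from mom-5, a Frizzled receptor, at rank 291. The replicate 2 regions included one 2316 bp from mig-13, a guide of migrating Q descendants, at rank 256, and one 1359 bp from egl-20, a Wnt ligand, at rank 981. Of 11 Hox genes and cofactors none was named in replicate 1 only and 2 in replicate 2 only, both by coding exon summits: unc-62, the Meis-type partner, at rank 172, and psa-3 at rank 674. Shared regions also named 2 of the 11, unc-62 again and ceh-20, the Pbx-type partner.

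Of 24 body wall muscle genes 4 were named in replicate 1 only, 0 in replicate 2 only and 1 by shared regions. Those of replicate 1 only included the actin gene act-1 at rank 303, the myosin gene unc-54 at rank 587 and the transcription factor gene unc-120 at rank 676. Of 28 ventral cord motor neuron genes 2 were named in replicate 1 only, the acetylcholine receptor gene acr-12 at rank 513 and unc-53. In replicate 2 only 3 of them were: unc-53, the sodium channel gene unc-8 at rank 660 and the netrin receptor gene unc-5 at rank 692. None was named by a shared region. Of 29 vulval development genes, replicate 1 only named ref-2 at rank 297 and the Notch receptor gene lin-12 at rank 305, and replicate 2 only named lin-26. Of 18 genes of epidermis and seam, replicate 1 only named the GATA factor genes elt-1 at rank 389 and egl-18 at rank 646, and replicate 2 only named lin-26, at rank 108. Shared regions named no gene of the vulval or of the epidermal list. None of 81 ribosomal protein genes was named in replicate 1 only, 4 were in replicate 2 only, among them rpl-41.2 at rank 169 and rps-17 at rank 377, and 9 were by shared regions.

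The large gene families were counted the same way. Chemoreceptor genes gave 23 of 1163 (1.98%) in replicate 1 only, 17 (1.46%) in replicate 2 only and 3 (0.258%) by shared regions. Nuclear receptor nhr genes gave 8 of 269 (2.97%) in replicate 1 only, 3 (1.12%) in replicate 2 only and 2 (0.743%) by shared regions. The ceh homeobox genes gave 4 of 63 (6.35%) in replicate 1 only, 1 (1.59%) in replicate 2 only and 4 (6.35%) by shared regions. C-type lectin genes gave 2 of 237 in replicate 1 only and 5 in replicate 2 only, F-box genes gave 3 of 273 in replicate 1 only and 2 in replicate 2 only, and cuticle collagens 2 of 156 in replicate 1 only and 1 in replicate 2 only, and shared regions named none of these 3 families. Of 17 pan-neuronal genes 2 were named by members, both in replicate 2 only: the synaptic release genes unc-13 and unc-10. Shared regions named 3 others of them. The 1 of 21 germline genes named was mex-3 and the 1 of 25 hlh genes named by members was hlh-3, both in replicate 1 only; shared regions named no germline gene and 1 hlh gene. Intestine, stress, histone and nspc genes were named by no member, and shared regions named 1 stress, 1 histone and 1 nspc gene.

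The loci written into the strain's genotype held no member. The nearest regions to lin-39, on III, were 128620 bp away in replicate 1 only and 47361 bp away in replicate 2 only, and the nearest shared region was 23456 bp away in replicate 1 coordinates. Around unc-119, also on III, no member lay within 20000 bp in either direction.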

How the data were processed

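The authors deposited, for each of the 2 biological replicates, a narrowPeak candidate list of 30000 regions on ce10 and on ce11, and for both replicates together a further list and an optimal list. Per the deposited text files, each replicate's list was derived from that replicate's alignments and a further file that is not described here, and the optimal list from the 3 candidate lists. Peak caller, thresholds and read depth were not given in the sources used here. The signal column deposited by the authors was used only to rank regions within a list; what it is relative to is not stated. The q column, as deposited, was treated as a score and served an alternative ranking. Region width on ce11 was 330 bp in replicate 1 and 300 bp in replicate 2, and no signal was tied at either limit of the rule.

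Summits were placed on Ensembl gene models of WBcel235, whose chromosome lengths contain every ce11 region, and each was put in 1 of 5 classes in the order coding exon, untranslated region, intron, noncoding exon, intergenic. Shares were compared with two-sided Fisher's exact tests and Benjamini-Hochberg adjustment within each family, at a threshold of 0.05, and intervals are exact Clopper-Pearson intervals at 95%. Replicates here are the labels' biological replicates; there is no second group, and the tests compare lists of regions. Code was tested on simulated lists. Named regions are the 10 strongest members in each direction, those at the limits of the rule, genes with at least 2 members or members in both directions, and up to 3 genes per gene list and direction by rank; of 20 gene lists, 2 symbols found no gene model. The members, lists, words and tests were chosen with earlier results of these data known. The comparison with candidates below rank 10000, the purine stretches, the lower 500 ranks for every feature, the coding exon alternatives, and the fits on autosomes or on G+C above the median were added after seeing these data. Python 3.11.15, NumPy 2.4.6, SciPy 1.17.1, pandas and matplotlib were used.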

Additional observations from a re-analysis of the deposited data

Results flagged for a closer look

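Among the shares tested, 4 differed between regions strong in replicate 1 only and regions strong in replicate 2 only by a direct test of the difference, Fisher's exact test with Benjamini-Hochberg adjustment within its family. The coding exon share was 17.5% in replicate 1 only and 30.4% in replicate 2 only, a difference of -12.91 percentage points (adjusted p = 1.19e-05, exact test); over the whole replicate 1 and replicate 2 lists it was 22.8% and 31.6%. The intergenic share was 41.4% in replicate 1 only and 31.9% in replicate 2 only, a difference of 9.49 points (adjusted p = 0.00468, exact test), with 36.2% and 31.1% over the whole lists. The run of A or T was in 18.5% of replicate 1 only and 9.64% of replicate 2 only, a difference of 8.87 points (adjusted p = 0.000441, exact test), with 21.6% and 16% over the whole lists. G+C above the own list's median was found in 56.0% of replicate 1 only and 70.2% of replicate 2 only, a difference of -14.26 points (adjusted p = 3.24e-05, exact test), the list medians being 34.5% and 37%. Over the whole replicate 1 and replicate 2 lists that share was 49.7% and 48.9%, a difference of 0.773 points. The part of the whole lists' differences in these results was not tested.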

How the results depend on the processing

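Alternatives were run on the numbers of members and on the X, promoter-proximal, coding exon and GAGAGA shares, with differences below in percentage points and p-values from Fisher's exact test with adjustment. Members of replicate 1 only numbered 156 from the top 500 and 1203 from the top 2000, those of replicate 2 only 170 and 1201, and 293 were left of replicate 1 only when no overlap with any of the 30000 was allowed. The other alternatives for the counts stayed within 1.5 times, and ranking by the q score kept 474 of the 486 and 422 of the 477 members. By that ranking replicate 1 only had 488 members and replicate 2 only 629, so the directions were no longer near in number. Coding exon differences kept direction and call in all 10 alternatives for each comparison, from 10.51 to 16.05 for replicate 1 only against shared, from 23.8 to 29.65 for replicate 2 only against shared, and from -13.65 to -11.36 between the directions. The promoter-proximal call (exact test) for replicate 1 only was lost with a window of 500 bp upstream to 100 bp downstream (-6.45, p = 0.0882), with G+C above the median only (-9.15, p = 0.0662) and in the lower 500 ranks (-1.68, p = 0.921), and for replicate 2 only in the lower 500 ranks (-4.22, p = 0.694); between the directions its uncalled difference of 0.707 turned to -2.38 in the top 500 and -0.55 when overlap of 50% of the region was asked. The X call (exact test) for replicate 1 only was lost with G+C above the median only (-9.51, p = 0.0850), in the lower 500 ranks (-11.23, p = 0.350) and in the top 500 (-11.02, p = 0.306), and between the directions X was called in the top 2000 (-4.36, p = 0.0402). The GAGAGA call against shared regions (exact test) was lost in the top 500, for replicate 1 only (-10.33, p = 0.189) and for replicate 2 only (-4.02, p = 0.708). In the lower 500 ranks that call (exact test) was kept, for replicate 1 only (-25.42, p = 0.00186) and for replicate 2 only (-20.68, p = 0.0107). Between the directions GAGAGA was called in the top 2000 (exact test, -4.61, p = 0.0103). The lower 500 ranks hold 51 and 57 shared regions, fewer than the full set. The cause of these changes, in the lower 500 ranks or elsewhere, was not tested. Gene list counts at a limit of 2000 bp were equal or lower. No paired analysis was possible because there is 1 group, and no replicate could be left out because the rule needs both. Read depth is unknown.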
